A study of Rattus norvegicus with 16 samples.

Results

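The comparison set 4 livers of rats in phase 3 of fasting (P3) against 4 livers of rats in the fed state (fed), 8 of the 16 arrays of the series, over 13215 genes with a row of their own. The 8 arrays were picked by their titles and not by their values, though the groups were chosen with earlier results of these data known. All animals were male Sprague Dawley rats, an outbred laboratory strain. P3 animals had reached the third phase of a prolonged fast. The remaining arrays hold 4 livers in phase 2 (P2) and 4 livers of animals that ate again for 2 days after phase 3 (P3r2). Whole liver was frozen, milled and extracted, and total RNA depleted of ribosomal RNA was labelled and hybridized to an Affymetrix exon array. The hours of fasting, the ages, the body weights and the time of day at sampling are not stated in the labels, so time of day and fasting cannot be told apart. Each array is 1 animal, and 4 animals per group limit the precision.

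A prolonged fast is divided by fuel. In phase 2 the body burns mainly fat, the liver turns fatty acids into ketone bodies, and body protein is spared. In phase 3 fat stores run low, glucocorticoids rise, muscle protein is broken down, and the liver receives amino acids, from which it makes glucose and urea. Insulin drives fatty acid synthesis and glycogen storage in the fed liver, whereas glucagon acts through cyclic AMP and glucocorticoids act through a nuclear receptor.

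All values are log2 signal intensities, and a difference of 1 is 2-fold. Fold changes are given on the log2 scale as P3 minus fed ± the standard error of the fit. "Called" means an adjusted p below 0.05 in limma with Benjamini-Hochberg adjustment over 18885 rows, and "rose" and "fell" are used only of called genes. Levels of different genes cannot be compared, because each gene has its own probes.

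Arrays correlated at 0.978 to 0.989 among fed livers, at 0.966 to 0.987 among P3 livers and at 0.912 to 0.961 between the groups. The first principal component of the 8 arrays held 60.5% of the variance and separated the groups. Arrays fed 2 and P3 3 had the narrowest spread of values in their groups, and fed 2 had the lowest value of the 4 fed livers in 75.6% of the genes that rose and in 73.5% of those that fell. Without fed 2, 1591 genes were called higher and 1584 lower. Hepatocyte markers had mean levels of 12.22 to 12.48 in fed and 12.44 to 12.71 in P3 livers. Of these 11 markers 5 rose and 2 fell, and Alb, albumin, was not called (-0.19 ± 0.08). Markers of Kupffer cells rose in 2 of 13 cases (15.4%, against 14.6% of all genes) with none lower, at mean levels of 6.63 to 7.64 in fed and 6.92 to 7.63 in P3. Without fed 2, none of the Kupffer markers was higher and 1 was lower, and none was higher without P3 2, P3 3 or P3 4. Markers of neutrophils fell in 1 of 9 cases, of lymphocytes in 1 of 10, of red cells in 1 of 5 and of adipocytes in 1 of 8, where 10.1% of all genes fell, and none of these markers rose. Over the fits that left out 1 array each, the neutrophil markers lower ranged from 0 (without fed 4, P3 1 or P3 4) to 3 (without fed 2), and the lymphocyte markers lower from 1 to 2 (without fed 2, P3 1 or P3r2 4). Adipocyte markers higher ranged from 0 to 2 (without P3 3), and 1 cholangiocyte marker was lower without fed 2. Sinusoidal endothelial markers numbered 7, of which 1 rose (none without P3 4, and 2 without fed 4) and 1 fell (none without fed 1, fed 4, P3 1, P3 2 or P3 3), and 0 of 7 cholangiocyte and 0 of 8 pancreatic markers were called. A log2 signal has no true zero, but the adipocyte hormone Adipoq stood at 2.63, 2.65, 2.81 and 2.85 in fed and at 2.60, 2.58, 2.66 and 2.81 in P3 livers, near the floor of the array. In whole liver, fewer cells of a type and less RNA per cell cannot be told apart.

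Of the 13215 genes, 1927 (14.6%) were higher and 1334 (10.1%) were lower in P3 livers. Counts in the gene lists are to be read beside these shares. At least 2-fold, 783 (5.93%) were higher and 674 (5.1%) lower. The 4 P3 values and the 4 fed values did not overlap in 3217 genes (24.3%). The median difference over all genes was 0.04. The falls reached further than the rises: 35 genes fell and 12 rose at least 16-fold, 85 fell and 36 rose at least 8-fold, and 233 fell and 145 rose at least 4-fold.

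The largest rise was that of Gadd45b, a stress-induced regulator of growth arrest, which stood at 5.63, 5.23, 5.40 and 5.41 in fed and at 11.26, 11.24, 11.90 and 11.74 in P3 livers. All 4 P3 livers lay more than 5 log2 units above all 4 fed livers, a rise of 6.12 ± 0.17 (adjusted p = 5.2e-12). Pptc7, a phosphatase of the mitochondrion, was the tightest in the fed state, at 6.51, 6.50, 6.54 and 6.50, and stood at 11.06, 11.23, 11.91 and 11.40 in P3 (4.88 ± 0.18, adjusted p = 1.2e-10). Kcnma1, a calcium-activated potassium channel, went from 3.48, 3.44, 3.39 and 3.24, near the floor of the array, to 7.88, 8.07, 7.57 and 8.24 (4.55 ± 0.32). Slc13a5, the citrate importer of hepatocytes, varied among animals in both groups, from 4.78 to 7.02 in fed and from 9.02 to 10.85 in P3, yet the groups were apart (4.33 ± 0.61, adjusted p = 8.5e-05). Coq10b, which helps coenzyme Q work in the respiratory chain, rose by 4.11 ± 0.34.

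The largest fall was that of Car3, a carbonic anhydrase abundant in male rat liver. It stood at 12.39, 12.11, 12.51 and 12.55 in fed and at 4.71, 4.79, 4.38 and 3.92 in P3 (-7.94 ± 0.19, adjusted p = 9.0e-13). Dhrs7l1, a short-chain dehydrogenase, went from 10.32, 10.10, 11.06 and 10.40 to 4.43, 3.39, 2.25 and 3.08 (-7.18 ± 0.68). Bdh1, which turns acetoacetate into 3-hydroxybutyrate, went from 11.35, 11.11, 11.14 and 11.28 to 5.52, 5.11, 5.03 and 4.95 (-6.07 ± 0.19, adjusted p = 1.2e-11). These 3 genes did not overlap between the groups, and Car3 and Bdh1 were tight within each group. Slc22a8, an organic anion transporter, fell by 6.22 ± 0.34, and Serpina6, the plasma carrier of glucocorticoids, fell by 5.99 ± 0.33.

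**Figure D1:**
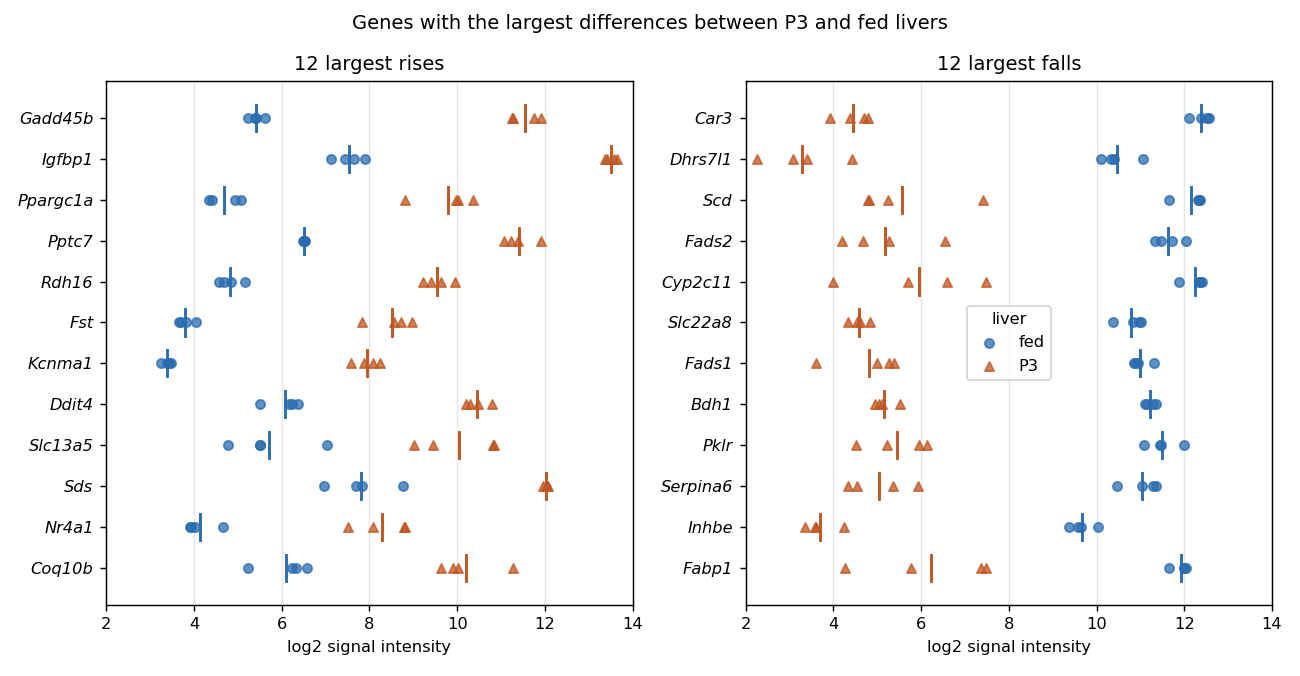
Log2 signal intensity (horizontal axis) in each of 4 fed livers (blue circles) and 4 P3 livers (orange triangles) for the 12 genes with the largest rises (left) and the 12 with the largest falls (right) among called genes with no overlap between the groups; vertical ticks are group means. P3 livers scatter more than fed livers in Cyp2c11, Scd and Fabp1, while Igfbp1 and Sds are tight in P3.

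Genes of 3 activin subunits fell and that of follistatin rose. Activins are growth factors of the TGF-beta family, of which activin A restrains hepatocyte growth. Follistatin is a secreted protein that binds and blocks activin A. Inhbe, which encodes the activin E subunit made mainly in liver, stood at 9.65, 9.59, 9.38 and 10.04 in fed and at 3.61, 3.58, 4.23 and 3.35 in P3 livers, a fall of 5.97 ± 0.45 log2 units (adjusted p = 2.0e-07). Inhbc, the activin C subunit, stood at 9.69, 9.22, 9.77 and 9.97 in fed and at 5.44, 5.34, 4.72 and 4.83 in P3 (-4.58 ± 0.23, adjusted p = 2.7e-09). Inhba, the activin A subunit, fell by 2.60 ± 0.23. Fst, follistatin, went the other way: the fed livers stood at 3.71, 4.04, 3.81 and 3.67 and the P3 livers at 8.73, 7.82, 8.55 and 8.96 (4.71 ± 0.18, adjusted p = 1.5e-10). The fed and P3 values did not overlap in any of these 4 genes. In phase 2, Inhbe was already lower than in fed livers (-3.12 ± 0.45) and Fst was not called (0.07 ± 0.18). The difference between P3 and P2 was 4.64 ± 0.18 for Fst (adjusted p = 2.7e-10), -3.75 ± 0.23 for Inhbc (adjusted p = 4.9e-08) and -2.84 ± 0.45 for Inhbe (adjusted p = 0.00028). For Inhba this difference was -0.62 ± 0.23 and was not called (adjusted p = 0.067). Of 40 secreted hepatokines and growth factors, 4 rose and 13 fell, where 14.6% of all genes rose and 10.1% fell.

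Growth hormone acts on its hepatic receptor, through Stat5, to make insulin-like growth factor 1 and the acid-labile subunit that carries it in blood. Ghr, the receptor, stood at 10.98, 10.34, 11.03 and 10.86 in fed and at 8.13, 7.97, 6.66 and 7.37 in P3 livers (-3.27 ± 0.25, adjusted p = 2.2e-07). Igfals, the acid-labile subunit, stood at 10.72, 10.27, 10.65 and 10.85 in fed and at 7.83, 7.72, 3.93 and 4.69 in P3, where P3 1 and P3 2 were about 3 to 4 log2 units above P3 3 and P3 4 (-4.58 ± 0.67, adjusted p = 0.00012). Igf1 showed the same split, with 11.23, 10.80, 8.48 and 9.50 in P3 against 11.997, 11.67, 11.93 and 12.17 in fed (-1.94 ± 0.42, adjusted p = 0.003). Stat5a (-1.62 ± 0.15) and Igf2r (-1.82 ± 0.21), the receptor that clears insulin-like growth factor 2, fell as well. Among the binding proteins 3 rose. Igfbp1, which sequesters the growth factors and which insulin represses, was at 7.89, 7.12, 7.66 and 7.43 in fed and at 13.42, 13.37, 13.57 and 13.63 in P3 (5.97 ± 0.22, adjusted p = 9.6e-11). Igfbp2 rose by 3.34 ± 0.27 and Igfbp5 by 2.58 ± 0.15. Of 23 members of the growth hormone and IGF list, 6 rose and 6 fell (26.1% each, against 14.6% and 10.1% of all genes).

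**Figure D2:**
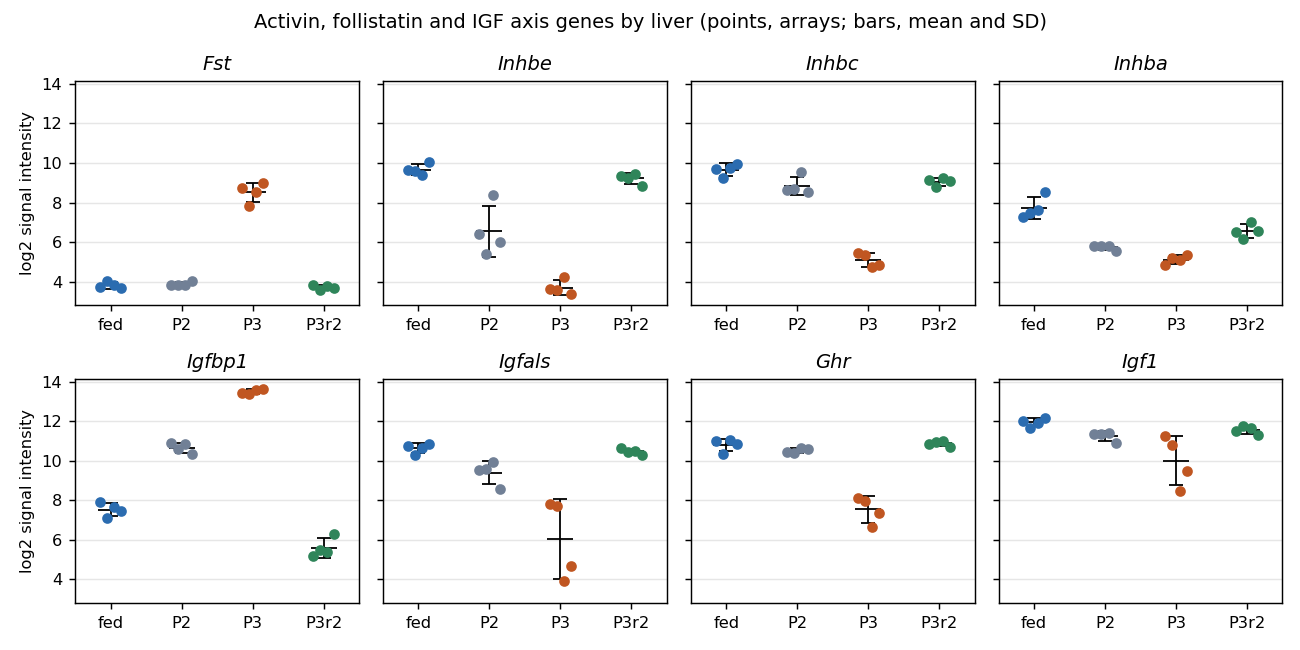
Log2 signal intensity (vertical axis) of 8 genes of the activin, follistatin and IGF axis in 4 fed, 4 P2, 4 P3 and 4 P3r2 livers; points are arrays, and bars give the mean and SD of each group. The 4 P3 values of Fst lie above all other arrays, Inhbe has its lowest 4 values in P3 with P2 between P3 and fed, and Igfals and Igf1 split the P3 livers into a higher and a lower pair.

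Genes of fat synthesis had the lowest median of the 42 gene lists. Of 20 lipogenesis genes 17 fell and 2 rose (10.1% and 14.6% of all genes did), with a median of -3.14. Thrsp, a regulator of fatty acid synthesis driven by carbohydrate and thyroid hormone, stood at 12.22, 12.52, 12.59 and 12.06 in fed and at 7.68, 8.08, 7.86 and 7.72 in P3 (-4.51 ± 0.14, adjusted p = 8.4e-12), with little spread in either group. Acly (-3.31 ± 0.28) and Acaca (-2.38 ± 0.27), which make the building blocks of fatty acids, fell with Gpam (-3.59 ± 0.42) and Dgat2 (-1.50 ± 0.22), which build triglyceride from them. Against phase 2 the pathway was uneven. Fads2, which desaturates polyunsaturated fatty acids, was lower in P3 than in P2 (-4.20 ± 0.37, adjusted p = 2.0e-06). For Scd, the desaturase that makes oleate, P3 minus P2 was 0.89 ± 0.42 (adjusted p = 0.16), and for the elongase Elovl6 it was -0.11 ± 0.28 (adjusted p = 0.83), neither of them called. Both were already lower than fed livers in P2 (-7.49 ± 0.42 and -4.31 ± 0.28). P3 3, at 7.40, had more Scd than the other P3 livers, at 4.80 to 5.25.

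The 2 lipogenesis genes that rose have other roles besides. Lpin1, a phosphatidate phosphatase that also coactivates fat oxidation genes, stood at 9.62, 9.34, 8.99 and 8.64 in fed and at 12.41, 12.24, 11.31 and 12.07 in P3 (2.86 ± 0.41, adjusted p = 0.0001). Insig1, which holds the SREBP transcription factors in the endoplasmic reticulum, stood at 11.37, 12.35, 11.19 and 11.29 in fed and at 13.14, 12.92, 13.37 and 13.15 in P3 (1.59 ± 0.21, adjusted p = 5.6e-05). For both the P3 livers lay above all fed livers. Of 17 cholesterol genes 14 fell and 1 rose, with a median of -1.95, and none rose without fed 2, fed 3, fed 4, P3 1, P3 2, P3 4 or P3r2 1. Nsdhl (-3.45 ± 0.22) and Tm7sf2 (-3.35 ± 0.22) led the falls of sterol enzymes, and Srebf2 (-1.20 ± 0.23), the transcription factor of the pathway, fell less. The sterol regulatory element, TCACNCCAC, lay in 0 of 13 promoters of the cholesterol list and in 0 of 17 of the lipogenesis list within 250 bases of the start, against 0.959% of genes with a row.

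Genes of fat oxidation and of its receptor PPAR alpha fell more often than they rose. Of 32 members 2 rose, or 4 without P3 3, and 11 fell, with a median of -0.35. Cpt1a, which admits fatty acids to mitochondria, rose from 8.84, 9.14, 8.48 and 8.76 to 11.02, 10.90, 10.38 and 10.44 (1.88 ± 0.30, adjusted p = 0.00023), and Ech1, which handles unsaturated fatty acids, rose by 1.21 ± 0.23. Fabp1, the fatty acid carrier of the hepatocyte cytosol, stood at 11.99, 11.65, 11.98 and 12.03 in fed livers and at 7.37, 7.47, 4.27 and 5.77 in P3, where P3 3 was the lowest (-5.70 ± 0.48). Hadh (-3.23 ± 0.36), Acadm (-1.62 ± 0.18) and Ehhadh (-1.93 ± 0.30), enzymes of mitochondrial and peroxisomal oxidation, fell. Ppara, the receptor that drives many of these genes, was not called (0.81 ± 0.29), but was called higher without P3 3 (1.08, adjusted p = 0.0097). Fgf21, a fasting hormone and a target of that receptor, was not called either (-0.87 ± 0.43). Of the 5 ketone body enzymes and carriers with a row, 3 fell and 1 rose, a rise lost without fed 3, fed 4, P3 1, P3 3 or P3 4, and Bdh1 was the only one past 2-fold.

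Among 21 gluconeogenesis genes 8 rose and 6 fell. Sds, which turns serine into pyruvate, was at 8.76, 7.70, 7.82 and 6.96 in fed and at 12.06, 11.96, 12.06 and 12.03 in P3, where the 4 livers were within 0.1 log2 units of each other (4.21 ± 0.54, adjusted p = 3.4e-05). Gpt (1.83 ± 0.31) and Got1 (2.81 ± 0.22), the transaminases of alanine and aspartate, rose too, with Pck1 (1.42 ± 0.35) and G6pc1 (1.19 ± 0.29), the enzymes that open and close the pathway. The falls included the glycerol branch: Aqp9 (-2.06 ± 0.38), the glycerol channel, Gk (-2.32 ± 0.21), glycerol kinase, and Gpd1 (-2.49 ± 0.26), glycerol phosphate dehydrogenase. Pc (-1.77 ± 0.28), pyruvate carboxylase, fell as well. In P2, Aqp9 was not called against fed livers (0.01 ± 0.38, adjusted p = 0.98), and it was lower in P3 than in P2 by a called difference (-2.07 ± 0.38, adjusted p = 0.00086). Of 14 genes of glycogen and glucose entry 6 fell and 1 rose, a rise lost without any 1 of 11 of the 16 arrays. The largest fall among them was that of Ppp1r3b, which brings a phosphatase to glycogen and so favours its synthesis, from 10.23, 10.30, 10.20 and 10.29 to 6.57, 7.03, 5.22 and 6.12 (-4.02 ± 0.31).

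Regulators of cyclic AMP signalling and of gluconeogenesis numbered 24, of which 16 rose and 3 fell, with a median of 0.88. Ppargc1a, which coactivates genes of gluconeogenesis and mitochondria, stood at 4.94, 4.42, 4.34 and 5.08 in fed and at 10.37, 9.98, 8.82 and 10.03 in P3 (5.11 ± 0.29, adjusted p = 9.0e-09). Nr4a1, an orphan nuclear receptor induced by glucagon, stood at 4.03, 3.93, 3.92 and 4.66 in fed and at 7.51, 8.08, 8.78 and 8.81 in P3 (4.16 ± 0.24, adjusted p = 1.5e-08). Sik1, a kinase that feeds back on cyclic AMP signalling, rose by 3.25 ± 0.25. In none of these 3 genes did the groups overlap. In P2 against fed livers, the difference was 1.01 ± 0.29 for Ppargc1a (adjusted p = 0.032), 0.27 ± 0.24 for Nr4a1 (adjusted p = 0.49) and -0.75 ± 0.25 for Sik1 (adjusted p = 0.063). Gcgr, the glucagon receptor, fell from 9.30, 9.33, 9.17 and 9.51 to 7.38, 7.98, 5.90 and 6.87 (-2.30 ± 0.30), and Cebpa, a factor of the mature hepatocyte, fell by 0.92 ± 0.21, while its relative Cebpb rose by 2.12 ± 0.14.

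The full cyclic AMP response element, TGACGTCA, was looked for in the 250 bases before each start, on both strands, in RefSeq promoters of build GRCr8, which held 325 of the 413 genes the naming rule gives. It was present in 244 of 10844 promoters of genes with a row (2.25%), in 22 of 657 (3.35%) of genes at least 2-fold higher and in 15 of 558 (2.69%) of genes at least 2-fold lower. By list, it was present in 1 of 20 promoters of the cyclic AMP and gluconeogenic regulators (5.0%). It was also present in 4 of 25 of the C/EBP and immediate early factors (16.0%) and in 2 of 17 of the lipogenesis genes (11.8%), most of which fell. The following windows show it, in capitals, in 5 genes that rose, with 1 gene that fell for contrast, each 5′ to 3′ on the strand of the gene.
Ppargc1a (chr14:63634107-63634154, plus strand): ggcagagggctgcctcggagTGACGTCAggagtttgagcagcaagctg
Slc25a25 (chr3:36116712-36116759, minus strand): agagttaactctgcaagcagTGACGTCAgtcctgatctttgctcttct
Maff (chr7:112792716-112792763, plus strand): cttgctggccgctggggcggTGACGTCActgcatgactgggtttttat
Ppp1r15a (chr1:105139635-105139682, minus strand): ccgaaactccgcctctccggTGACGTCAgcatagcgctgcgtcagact
Dusp1 (chr10:17184709-17184756, plus strand): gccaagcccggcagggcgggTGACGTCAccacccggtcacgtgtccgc
Acadm (chr2:245542940-245542987, minus strand): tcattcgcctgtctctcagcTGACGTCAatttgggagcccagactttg
Ppargc1a rose by 5.11 log2 units, Slc25a25, a carrier of ATP and phosphate in mitochondria, by 2.99 ± 0.25, the transcription factor Maff by 2.78 ± 0.25, the phosphatase subunit Ppp1r15a by 2.28 ± 0.17 and the phosphatase Dusp1 by 2.26 ± 0.28. Acadm, with the same element, fell by 1.62 ± 0.18. A match of letters is a description and not a measured site.

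Enzymes that dismantle amino acids numbered 49, of which 21 rose and 12 fell, the falls numbering 7 without fed 3. Those that rose include Sdsl (1.99 ± 0.12), a relative of Sds, Dbt (1.88 ± 0.14), of branched-chain oxidation, Aspg (1.80 ± 0.21), an asparaginase, Tdo2 (1.69 ± 0.16), which opens tryptophan breakdown, and Agxt (1.43 ± 0.16), the alanine-glyoxylate transaminase. Those that fell include Dpys (-5.0 ± 0.65), of pyrimidine breakdown, Csad (-2.83 ± 0.29), of taurine synthesis, Kynu (-2.42 ± 0.28), of the kynurenine branch below Tdo2, and Gldc (-2.16 ± 0.42), of glycine cleavage. Urea cycle genes numbered 12, of which 8 rose and 1 fell, or 2 without P3 1 or P3 2. Asl, argininosuccinate lyase, stood at 10.70, 10.26, 10.64 and 10.59 in fed and at 12.94, 12.96, 13.18 and 13.10 in P3 (2.5 ± 0.13, adjusted p = 5.2e-09), and Slc25a15, the ornithine carrier, rose by 1.92 ± 0.13. Otc, ornithine transcarbamylase, was the exception: fed livers stood at 10.80, 9.86, 10.87 and 10.81 and P3 livers at 8.94, 8.92, 4.43 and 7.70, with P3 3 more than 3 log2 units under the other P3 livers (-3.09 ± 0.69, adjusted p = 0.0041). In the fit of fed and P3 arrays alone Otc was not called.

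Amino acid transporters went both ways, with 9 of 32 higher (28.1%, against 14.6% of all genes) and 7 lower (21.9%, against 10.1%). Slc38a2, a sodium-coupled importer of small neutral amino acids induced by amino acid shortage, stood at 9.27, 8.70, 9.21 and 9.46 in fed and at 12.89, 12.88, 12.55 and 12.97 in P3 (3.66 ± 0.22, adjusted p = 1.6e-08). Slc1a2, a glutamate importer, stood at 7.55, 5.92, 7.59 and 7.36 in fed and at 10.83, 10.39, 11.17 and 10.90 in P3 (3.72 ± 0.37), and Slc16a10, which lets aromatic amino acids cross the membrane, stood at 8.57, 7.89, 8.44 and 8.42 in fed and at 12.32, 11.94, 11.93 and 12.29 in P3 (3.79 ± 0.19). The P3 livers were above all fed livers in each. Slc1a4 (2.14 ± 0.36) and Slc3a2 (1.94 ± 0.17), the heavy chain of several exchangers, rose less, and Slc6a13 (-3.24 ± 0.40) and Slc6a9 (-1.89 ± 0.26), carriers of GABA and taurine and of glycine, fell.

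The integrated stress response is the program that uncharged transfer RNA and other stresses start through the factor Atf4. Of its 31 listed genes 12 rose and 5 fell. Atf4 rose from 8.34, 8.38, 8.74 and 8.94 to 10.07, 9.72, 10.48 and 10.28 (1.53 ± 0.16, adjusted p = 5.1e-06). Chac1, which degrades glutathione, stood at 5.35, 5.13, 5.35 and 5.06 in fed and at 7.24, 8.76, 9.01 and 9.30 in P3 (3.35 ± 0.32), Nupr1, a stress-induced chromatin protein, rose by 3.23 ± 0.32, Trib3, a pseudokinase that restrains Akt, by 2.75 ± 0.23, and Ddit4, an inhibitor of mTORC1, by 4.37 ± 0.18. In the amino acid branch Asns, asparagine synthetase, rose by 0.80 ± 0.22, but was not called without P3 4 (0.69, adjusted p = 0.061) or without P3 2 (0.72, adjusted p = 0.05). Slc7a11, the cystine importer, stayed near the floor at 2.21, 2.40, 2.29 and 2.24 in P3 (0.05 ± 0.11), and Shmt2 (-1.82 ± 0.22), Atf5 (-1.81 ± 0.27) and Cth (-1.16 ± 0.18), of serine, stress and cysteine metabolism, fell. The composite element to which C/EBP and ATF factors bind, TGATGNAAT, lay in 2 of the 30 promoters of this list (6.67%, against 0.646% of genes with a row), and in 2 of 28 of the fat oxidation list (7.14%), whose called genes mostly fell. The same letters lie in promoters of Hsd17b13, which rose (1.005), Cyp2f4, which fell (-3.185), and Fgf21, which was not called (-0.873). A match of letters is not a measured site. One of the 2 promoters of the stress response list is that of Nupr1. It is shown on the strand of the gene, where the element, in capitals, is in reverse.
Nupr1 (chr1:190645929-190645977, minus strand): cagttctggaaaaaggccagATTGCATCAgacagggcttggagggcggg

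Glucocorticoid-responsive genes numbered 27, of which 17 rose and 4 fell, with a median of 1.56. The largest rises of the list were those of Gadd45b, Igfbp1, Ddit4, Sds, Cdkn1a and Dusp1. Gadd45b, Igfbp1, Ddit4, Sds and Cdkn1a are also counted in other lists, so these counts are not separate from those. The half-site of the receptor, AGAACA, lay in 0 of 24 promoters of this list, against 12.8% of genes with a row. Other rises of the list include Fkbp5 (1.77 ± 0.39) and Tsc22d3 (1.89 ± 0.37), textbook targets of the receptor, Klf9 (2.21 ± 0.25) and Klf15 (2.09 ± 0.21), transcription factors, and Tat (1.28 ± 0.16), tyrosine aminotransferase. In P2, Tsc22d3 was already higher than in fed livers (1.62 ± 0.37, adjusted p = 0.012), and Tat was not (0.03 ± 0.16, adjusted p = 0.92). The 4 falls were of Angptl4 (-2.99 ± 0.36), an inhibitor of lipoprotein lipase, Sgk1 (-1.45 ± 0.25), a kinase, Tle3 (-0.54 ± 0.12), a corepressor, and Hsd11b1, which regenerates the active glucocorticoid inside the hepatocyte, from 11.90, 11.42, 11.97 and 12.01 to 10.67, 10.94, 10.37 and 9.94 (-1.35 ± 0.19, adjusted p = 7.0e-05). The carrier Serpina6, which is not on this list, stood at 11.35, 10.46, 11.28 and 11.03 in fed and at 5.35, 4.54, 4.33 and 5.93 in P3. In both genes the groups were apart. P3 livers were also lower than P2 livers in Hsd11b1 (-1.95 ± 0.19, adjusted p = 4.0e-06) and in Serpina6 (-4.64 ± 0.33, adjusted p = 2.4e-07).

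Immediate early and C/EBP factors numbered 34, of which 21 rose and 2 fell. After Nr4a1, the largest rises included Myc (3.57 ± 0.32), Klf6 (3.52 ± 0.28), Atf3 (3.15 ± 0.22), Junb (2.74 ± 0.47) and Jun (2.60 ± 0.35). Irf1 (-1.25 ± 0.31), of the interferon response, and Cebpa fell. In the growth arrest list 10 of 25 rose and 3 fell, the 3 being the activin subunits. Cdkn1a, the p21 inhibitor of cyclin-dependent kinases, stood at 8.41, 7.22, 8.45 and 7.75 in fed and at 10.10, 9.96, 10.73 and 10.63 in P3 (2.40 ± 0.41), and Tp53inp1 (2.96 ± 0.20) and Gadd45g (2.53 ± 0.45) rose as well. Insulin signalling genes were called higher in 6 (22.2%, against 14.6% of all genes) and lower in 4 (14.8%, against 10.1%) of 27 cases. Irs2, the insulin receptor substrate that fasting raises, stood at 5.38, 5.66, 5.91 and 5.89 in fed and at 9.41, 9.07, 8.03 and 9.37 in P3 (3.26 ± 0.27, adjusted p = 5.9e-07). Irs1 (0.60 ± 0.25) and Insr (0.51 ± 0.21), the receptor, were not called, but both were higher without P3 3 (Irs1 0.83, adjusted p = 0.021, and Insr 0.67, adjusted p = 0.029). Among 19 clock genes 12 rose and 1 fell. Per1 (2.25 ± 0.21), Wee1 (1.87 ± 0.34), Nfil3 (1.73 ± 0.31), Tef (1.39 ± 0.19) and Cry2 (1.33 ± 0.31) rose, and Npas2, a partner of Bmal1, fell from 5.80, 5.58, 5.62 and 6.05 to 4.12, 4.20, 4.17 and 4.07 (-1.62 ± 0.12). Of 34 nuclear receptors 10 rose (29.4%) and 5 fell (14.7%). Esrra (2.13 ± 0.17), which works with Ppargc1a, and Nr5a2 (1.29 ± 0.22) were among the rises. Rxrg (-2.04 ± 0.23) and Nr1h3 (-1.23 ± 0.20), the liver X receptor, were among the falls.

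**Figure D3:**
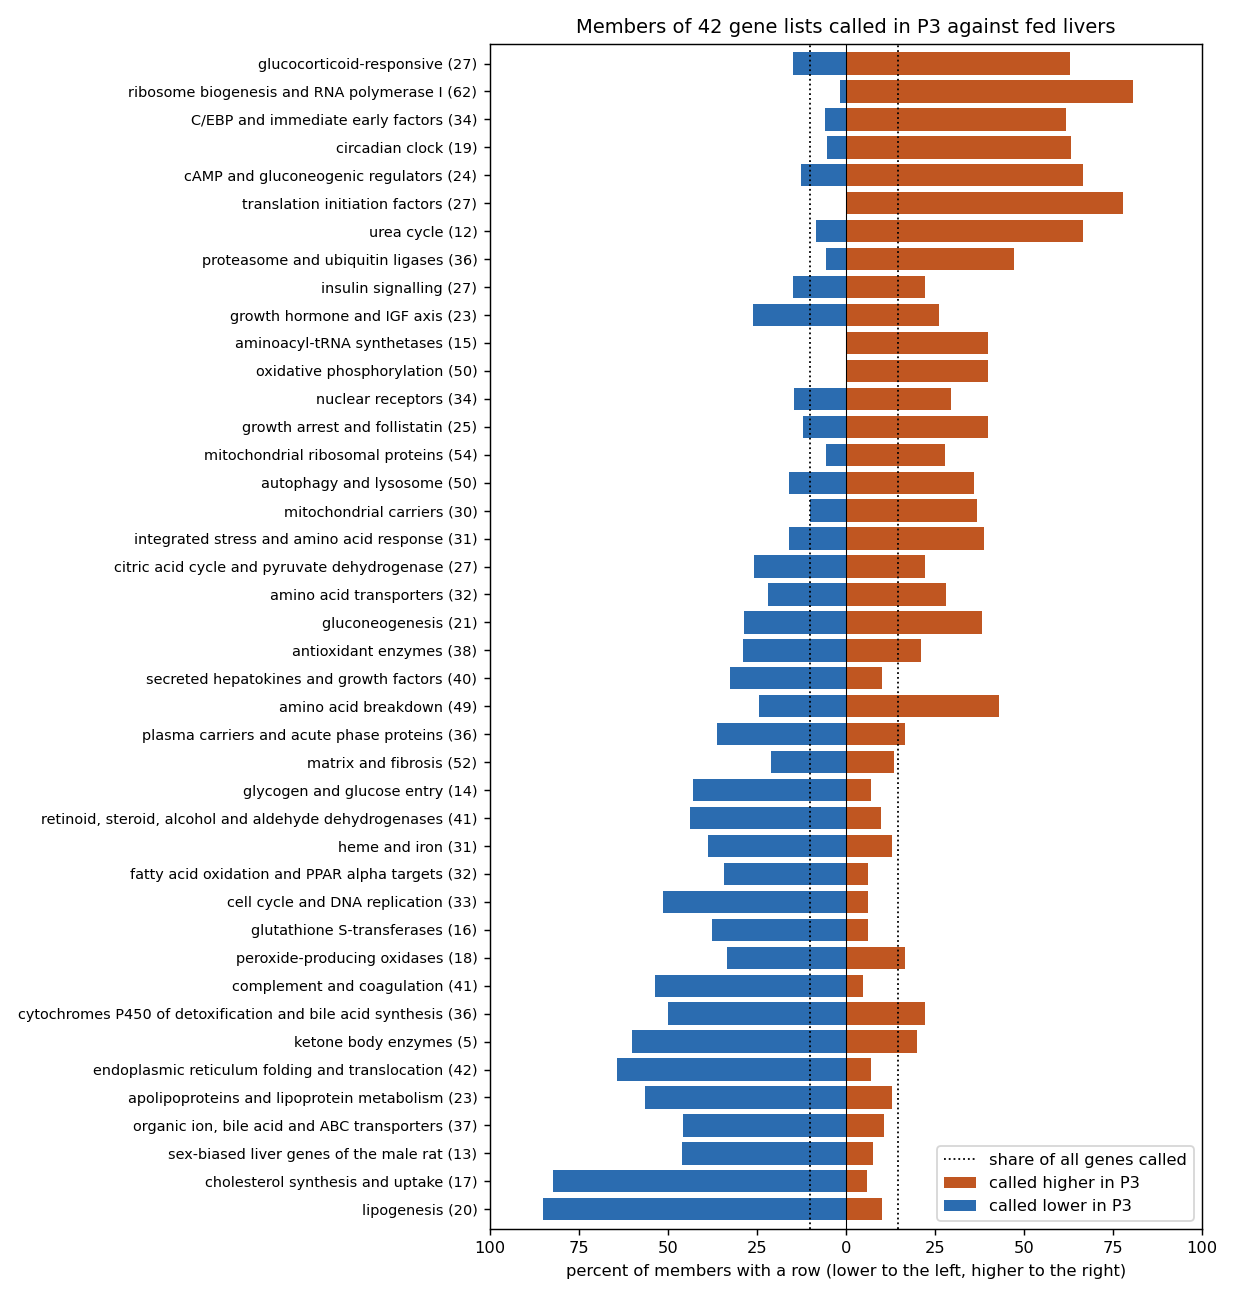
For each of 42 gene lists (number of genes with a row in parentheses), the percent of members called higher in P3 (orange, to the right) and lower (blue, to the left), ordered by median fold change; dotted lines mark the 14.6% and 10.1% of all genes called. Lipogenesis and cholesterol genes stand lowest, and ribosome biogenesis has the highest share of rises (80.6%).

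Most genes of ribosome building rose, and more genes of folding and translocation in the endoplasmic reticulum fell than rose. Of 62 genes of ribosome biogenesis and RNA polymerase I, 50 rose and 1 fell, with a median of 1.41 and 46 of the rises at least 2-fold. Wdr43, of the small subunit processome, stood at 6.65, 6.04, 6.52 and 6.74 in fed and at 9.27, 8.54, 9.29 and 9.43 in P3 (2.65 ± 0.20, adjusted p = 2.3e-07). Polr1c (2.59 ± 0.22), a shared subunit of RNA polymerases I and III, Nol8 (2.38 ± 0.26), Gnl3 (2.35 ± 0.26), the nucleostemin of the nucleolus, and Rrn3 (1.90 ± 0.23), which brings RNA polymerase I to its promoter, rose too. The 1 fall was that of Nop2, a ribosomal RNA methyltransferase, at 2.67, 3.05, 5.34 and 3.17 in fed and 1.79, 2.15, 1.51 and 2.14 in P3. All of these values but that of fed 3 lie near the floor of the array. The fall of Nop2, of 1.66 ± 0.42, rested in part on fed 3, without which it was -1.07, adjusted p = 0.0028. Nop2 was not called in the fit of fed and P3 arrays alone. In P2 the median of this list was 0.0, and its members Wdr43 and Polr1c were higher in P3 than in P2 by 2.37 ± 0.20 and 1.57 ± 0.22 (adjusted p = 1.5e-06 and 0.0001).

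Of 27 translation initiation factors 21 rose and none fell, with a median of 0.85, among them Eif2s1 (1.93 ± 0.35), the subunit that stress kinases phosphorylate, Eif4a1 (1.70 ± 0.17), a helicase, and Eif3d (1.68 ± 0.21). The count of factors that rose was 17 without fed 2 and P3 3. Of 15 aminoacyl-tRNA synthetases and their partners 6 rose and none fell, led by Aimp2 (2.15 ± 0.32), a scaffold of the complex, and Qars1 (1.4 ± 0.23). Mitochondrial ribosomal proteins numbered 54, of which 15 rose and 3 fell, or 14 and 8 without fed 2. The E box, CACGTG, to which Myc and clock factors bind, lay in 13 of 56 promoters of the ribosome biogenesis list (23.2%). Among the initiation factors it lay in 6 of 23 (26.1%). It lay in 776 of 10844 genes with a row (7.16%), 80 of 657 genes at least 2-fold higher (12.2%) and 36 of 558 at least 2-fold lower (6.45%). The element was not particular to these 2 lists. Its share was also above that of genes with a row in the proteasome list (6 of 32, 18.8%). The same held for amino acid transporters (5 of 27, 18.5%) and for autophagy and the lysosome (7 of 39, 17.9%). Other lists were below it, such as mitochondrial ribosomal proteins (1 of 44, 2.27%) and amino acid breakdown (1 of 39, 2.56%). Gnl3 is shown for the ribosome biogenesis list, with Gadd45b and Klf6, 2 of the largest rises that also hold the element. The same letters lie in promoters of genes that fell, such as Apof (-3.577), Plin2 (-3.435) and C8a (-2.252). A match of letters is a description and not a measured site. The element is in capitals.
Gnl3 (chr16:6219783-6219827, minus strand): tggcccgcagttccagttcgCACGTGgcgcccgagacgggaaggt
Gadd45b (chr7:9430871-9430916, minus strand): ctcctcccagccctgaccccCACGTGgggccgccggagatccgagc
Klf6 (chr17:69458509-69458554, minus strand): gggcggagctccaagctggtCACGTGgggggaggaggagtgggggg
Myc, itself counted in the ribosome biogenesis list, went from 4.78, 4.21, 5.83 and 5.12 in fed to 8.0, 8.92, 8.25 and 9.06 in P3 livers. All P3 values of Myc were above all fed values. The part of Myc in the other rises was not tested.

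Genes of folding and translocation in the endoplasmic reticulum numbered 42, of which 27 fell and 3 rose, with a median of -0.78. Hyou1, a chaperone, stood at 10.03, 9.62, 9.58 and 10.18 in fed and at 7.79, 7.73, 7.08 and 7.45 in P3 (-2.34 ± 0.19, adjusted p = 4.6e-07). Pdia4 (-2.0 ± 0.22) and Pdia6 (-2.04 ± 0.14), disulfide isomerases, Calr (-1.75 ± 0.16), calreticulin, Sec61a1 (-1.07 ± 0.19), the channel itself, and Hspa5 (-0.91 ± 0.14), the chaperone BiP, fell. The 3 rises were of Edem1 (1.91 ± 0.18), Selenos (1.95 ± 0.28) and Herpud1 (0.78 ± 0.20), which dispose of misfolded proteins. Herpud1 was not called when fed 2 and P3 3 were both left out (0.70, adjusted p = 0.053). Hspa5 was no lower in P3 than in P2 by a called difference (-0.10 ± 0.14, adjusted p = 0.67), and Hyou1 was (-1.11 ± 0.19, adjusted p = 0.00054).

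**Figure D4:**
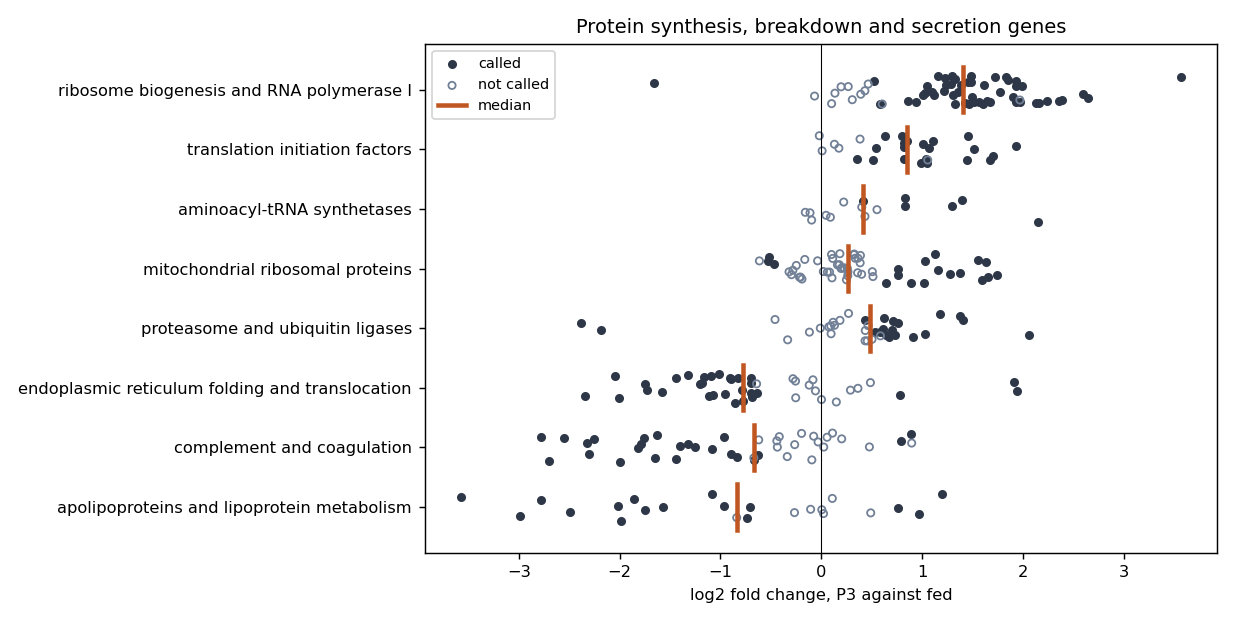
Log2 fold change of P3 against fed livers (horizontal axis) for each gene of 8 lists of protein synthesis, breakdown and secretion; filled points were called, open points were not, orange ticks are list medians and the vertical placing within a list is arbitrary. Medians lie above 0 for ribosome biogenesis (1.41) and initiation factors (0.85) and below 0 for the endoplasmic reticulum (-0.78), complement (-0.67) and apolipoproteins (-0.84).

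Among secreted proteins, complement and coagulation factors numbered 41, of which 22 fell and 2 rose. Mbl2 (-2.78 ± 0.42), a lectin that starts the complement cascade, C1s (-2.30 ± 0.42), a protease of complement, and F13b (-2.55 ± 0.47), the carrier subunit of factor XIII, fell. C3, the central component, stood at 12.83, 12.53, 12.72 and 12.87 in fed and at 11.93, 12.07, 9.74 and 10.63 in P3, where P3 3 and P3 4 were lower than P3 1 and P3 2 (-1.65 ± 0.37, adjusted p = 0.0039). The 2 rises were of complement genes that macrophages make, C1qb (0.89 ± 0.27) and C1qc (0.79 ± 0.27), and neither was called without fed 2 (0.56, adjusted p = 0.072, and 0.49, adjusted p = 0.13). C1qb was not called without P3 2 (0.91, adjusted p = 0.052), P3 3 (0.73, adjusted p = 0.1) or P3 4 (0.81, adjusted p = 0.092) either, nor was C1qc, at 0.65 to 0.85, without those 3 arrays or fed 1, and any P2 or P3r2 array left out also ended its call. They are also 2 of the Kupffer markers above. Apolipoprotein and lipoprotein genes numbered 23, of which 13 fell and 3 rose: Apof (-3.58 ± 0.39), Lrp1 (-2.78 ± 0.20), a clearance receptor, Lipc (-2.5 ± 0.29), hepatic lipase, and Apom (-2.02 ± 0.41) fell, and Apoa5 (1.20 ± 0.17), which promotes clearance of triglyceride, rose. Apob was not called (-0.84 ± 0.30), but it was lower without P3 1 (-1.08, adjusted p = 0.018) and without P3 2 (-1.0, adjusted p = 0.04).

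Plasma carriers and acute phase proteins numbered 36, of which 13 fell (36.1%, against 10.1% of all genes) and 6 rose (16.7%, near the 14.6% of all genes). Agt, angiotensinogen, rose from 11.25, 10.92, 11.32 and 11.24 to 12.19, 12.07, 13.15 and 12.51 (1.30 ± 0.21, adjusted p = 0.00025), with Lbp (1.46 ± 0.24), which binds endotoxin, Il6r (1.71 ± 0.25) and Il1r1 (1.38 ± 0.22), cytokine receptors. Afm (-3.71 ± 0.48), a vitamin E carrier, Itih2 (-1.67 ± 0.31) and Ttr (-0.80 ± 0.10), transthyretin, fell. Iron genes numbered 31, of which 12 fell (38.7%) and 4 rose (12.9%, below the share of all genes). The rises numbered 2 without fed 2, fed 3 or P3 4. Hfe, a sensor of transferrin iron, stood at 9.13, 8.72, 9.07 and 8.77 in fed and at 6.40, 7.15, 5.94 and 5.59 in P3 (-2.65 ± 0.24). Hamp, hepcidin, which blocks iron export, stood at 11.82, 10.87, 11.43 and 10.85 in fed and at 12.96, 13.12, 13.61 and 13.32 in P3 (2.01 ± 0.61, adjusted p = 0.03). The groups did not overlap in Hamp, but it was not called without fed 4 (1.88, adjusted p = 0.077), without fed 2 or without P3 3 (both 1.89, adjusted p = 0.072), without P3 4 (1.99, adjusted p = 0.066) or without fed 3 (2.07, adjusted p = 0.053).

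Proteasome subunits and ubiquitin ligases numbered 36, of which 17 rose and 2 fell. Psma6, of the core ring, stood at 9.11, 8.16, 9.19 and 8.94 in fed and at 10.40, 10.64, 11.70 and 10.88 in P3 (2.06 ± 0.28), Psmd12 (1.18 ± 0.16), of the lid, rose, and so did Fbxo32, the ligase atrogin-1 known from wasting muscle, from 4.78, 4.43, 4.40 and 4.77 to 6.50, 5.76, 5.37 and 6.34 (1.4 ± 0.24). The 2 falls were of the immunoproteasome, whose subunits replace the standard ones under interferon. Psmb8 went from 9.01, 8.87, 9.79 and 9.26 to 6.75, 7.14, 6.80 and 6.69 (-2.38 ± 0.20, adjusted p = 5.2e-07) and Psmb9 fell by 2.18 ± 0.20. The number of rises was 11 without fed 2 and P3 3 and 12 without P3 3. Of 50 genes of autophagy and the lysosome 18 rose (36.0%, against 14.6% of all genes) and 8 fell (16.0%, against 10.1%). Map1lc3b, which coats autophagosomes, stood at 10.01, 9.01, 9.89 and 9.84 in fed and at 12.03, 12.05, 12.51 and 12.35 in P3 (2.55 ± 0.19, adjusted p = 1.4e-07), and Gabarapl1 (1.94 ± 0.17), its relative, and Ctsl (1.96 ± 0.17), cathepsin L, rose. Npc1 (-1.94 ± 0.28), which exports cholesterol from lysosomes, and Ctsc (-1.80 ± 0.24), another cathepsin, fell.

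Subunits of oxidative phosphorylation numbered 50, of which 20 rose and none fell, by small steps: the median was 0.37 and 2 rises reached 2-fold. Uqcrfs1, the iron-sulfur protein of complex III, had the largest rise, of 1.25 ± 0.28, and of 0.78, adjusted p = 0.02, without fed 2 and P3 3. Without these 2 arrays 14 subunits rose and 1 fell, and without fed 2 alone 18 rose and 1 fell. In P2 the median of these subunits against fed livers was 0.62. Mitochondrial carriers numbered 30, of which 11 rose and 3 fell. Slc25a25 went from 8.19, 8.31, 8.18 and 7.89 to 10.56, 11.12, 11.46 and 11.38, Slc25a32 (2.96 ± 0.32), which carries folate, and Slc25a29 (1.99 ± 0.32), which carries basic amino acids, rose, and Slc25a23 (-3.76 ± 0.30), which exchanges ATP and phosphate as Slc25a25 does, fell. In the citric acid cycle 6 of 27 genes rose (22.2%, against 14.6% of all genes) and 7 fell (25.9%, against 10.1%). Idh3a, a subunit of the NAD-linked isocitrate dehydrogenase, rose (1.70 ± 0.21), and the cytosolic NADP-linked enzyme Idh1 fell (-2.68 ± 0.32).

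Antioxidant enzymes numbered 38, of which 8 rose (21.1%, against 14.6% of all genes) and 11 fell (28.9%, against 10.1%). The rises numbered 5 without fed 2, P3 3 or P3 4. Rgn, which with Gulo makes ascorbate in the rat, stood at 11.56, 10.87, 11.59 and 11.69 in fed and at 7.53, 6.91, 3.80 and 5.45 in P3 (-5.50 ± 0.55). Gulo, the last enzyme of that route, stood at 12.04, 11.94, 11.89 and 11.80 in fed and at 9.38, 9.32, 7.58 and 8.62 in P3 (-3.19 ± 0.29). P3 3 was the lowest in both. Cat, catalase, showed the same order, with 10.42, 10.31, 7.43 and 9.0 in P3 against 12.38, 12.14, 12.34 and 12.42 in fed (-3.03 ± 0.46), while Gpx1, glutathione peroxidase 1, stood at 12.46, 12.27, 12.57 and 12.34 in fed and at 11.14, 11.54, 10.80 and 11.05 in P3 (-1.27 ± 0.15), with less spread among P3 livers. Hmox1, heme oxygenase 1, rose from 6.93, 6.18, 7.18 and 7.09 to 8.61, 8.49, 10.64 and 10.12 (2.62 ± 0.41, adjusted p = 0.0002), and its repressor Bach1 rose too, from 6.59, 6.37, 6.40 and 6.66 to 9.42, 8.56, 8.50 and 9.09 (2.39 ± 0.20, adjusted p = 6.8e-07). P3 3 and P3 4 had the most Hmox1, and P3 1 had the most Bach1. Glutathione S-transferases numbered 16, of which 6 fell and 1 rose, and the largest fall was that of Gstp3 (-5.02 ± 0.24). Oxidases that release hydrogen peroxide numbered 18, of which 6 fell (33.3%, against 10.1% of all genes) and 3 rose (16.7%, against 14.6%). Hao1 (-5.19 ± 0.63), glycolate oxidase, and Dao (-3.03 ± 0.37), which oxidizes D-amino acids, fell, and Paox (1.82 ± 0.19), of polyamine breakdown, rose.

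Cytochromes P450 and their partners numbered 36, of which 18 fell and 8 rose, with a median of -0.68, or -0.36 without P3 3. Many P450 genes are near copies of each other, and the array may not separate Cyp2c11, Cyp2c13 and other close members. Cyp2c11, the testosterone hydroxylase that growth hormone keeps high in male rats, stood at 12.34, 11.88, 12.40 and 12.36 in fed and at 7.49, 6.60, 4.0 and 5.71 in P3 (-6.30 ± 0.50, adjusted p = 3.6e-07), and every P3 liver was lower by more than 4 log2 units. Cyp1a2 (-3.02 ± 0.50), Cyp3a2 (-2.38 ± 0.53) and Cyp2c13 (-2.88 ± 0.39) fell, as did Hao2 (-4.19 ± 0.23), another male-biased gene. Of 13 sex-biased genes 6 fell and 1 rose, Cux2 (0.95 ± 0.20), a repressor that is higher in females. Por, the reductase that supplies electrons to all microsomal P450 enzymes, went the other way, from 8.80, 8.61, 9.16 and 8.84 to 12.35, 12.20, 12.16 and 12.29 (3.40 ± 0.29, adjusted p = 6.2e-07). Cyp7a1, which sets the rate of bile acid production, stood at 11.19, 10.89, 10.79 and 10.06 in fed and at 12.63, 12.76, 10.63 and 12.49 in P3, where P3 3 lay within the fed range (1.39 ± 0.40, adjusted p = 0.021). It was not called without fed 4 (1.17, adjusted p = 0.074), P3 1 (1.22, adjusted p = 0.066), P3 2 (1.18, adjusted p = 0.068) or P3 4 (1.27, adjusted p = 0.066). Cyp27a1 (1.53 ± 0.17), of the other route to bile acids, rose.

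Retinoid genes split. Rdh16, a retinol dehydrogenase, stood at 5.16, 4.69, 4.83 and 4.57 in fed and at 9.21, 9.41, 9.94 and 9.64 in P3 (4.74 ± 0.18, adjusted p = 1.5e-10), and Cyp26a1, which degrades retinoic acid, rose from 4.72, 3.98, 5.47 and 5.14 to 6.60, 7.87, 9.13 and 7.21 (2.88 ± 0.43, adjusted p = 0.00014). Aldh1a1 (-3.17 ± 0.44), which makes retinoic acid, Retsat (-2.07 ± 0.35) and Lrat (-1.28 ± 0.22), which stores retinol as esters, fell. Rdh16 and Cyp26a1 did not differ between P2 and fed livers by a called difference (0.01 ± 0.18 and -0.05 ± 0.43). In all, 18 of 41 dehydrogenases of retinoids, steroids, alcohols and aldehydes fell and 4 rose. Transporters of bile acids, organic ions and lipids numbered 37, of which 17 fell and 4 rose. Slco1b2 (-3.98 ± 0.48) and Slc10a1 (-2.82 ± 0.62), which take bile acids and drugs up from blood, fell, and Abcc3 (2.15 ± 0.34), which exports them back to blood, rose.

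Cell cycle genes numbered 33, of which 17 fell and 2 rose. Most falls were small: the median of the list was -0.46, and 4 falls reached 2-fold. Signals were low, at mean levels of 4.57 to 4.95 in fed and 4.24 to 4.45 in P3 livers. Ccnd1, the cyclin that starts the cycle, stood at 8.83, 8.22, 8.41 and 8.59 in fed and at 5.75, 5.40, 4.81 and 5.54 in P3 (-3.14 ± 0.26, adjusted p = 4.8e-07), and Top2a (-1.51 ± 0.23) and Mki67 (-0.86 ± 0.14), of dividing cells, fell. Mki67 was near the floor of the array already in fed livers, at 3.04 in fed 1 and at 3.68 to 3.74 in the others. The 2 rises were of Pcna (1.70 ± 0.31) and Mcm7 (1.32 ± 0.23), of DNA replication and repair. Among 52 matrix genes 7 rose (13.5%, against 14.6% of all genes) and 11 fell (21.2%, against 10.1%). The falls numbered 6 without P3 3 and 7 without fed 1, fed 4 or P3 2. Dcn, decorin, which also binds TGF-beta, went from 5.38, 5.07, 6.51 and 6.63 to 9.15, 8.95, 10.53 and 10.17 (3.80 ± 0.39, adjusted p = 4.4e-06). Of 12 markers of stellate cells and fibroblasts, Dcn among them, 2 rose and 3 fell, and Dcn alone rose in 11 of the 16 fits that left out 1 array. Col1a2 was at 7.87, 8.03, 7.99 and 8.73 in fed and at 7.0, 6.90, 6.81 and 9.96 in P3, so that P3 4 stood above all other livers of both groups, and it was not called (-0.49 ± 0.52). Without P3 4 it was lower (-1.25, adjusted p = 0.00091).

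The 4 P3 livers differed among themselves. Of the 674 genes at least 2-fold lower, P3 3 had the lowest value of the 4 in 501 (74.3%), P3 4 in 76, P3 1 in 50 and P3 2 in 47. Their median distance from the fed mean was -1.37 in P3 1, -1.36 in P3 2, -2.27 in P3 3 and -1.71 in P3 4. Of the 783 genes at least 2-fold higher, P3 2 had the lowest value in 453 (57.9%), and the median distances were 1.45, 1.12, 1.51 and 1.66 in P3 1 to P3 4. P3 3 is also the P3 array of narrowest spread, and the part of the array in these values was not tested. Without P3 3, 1902 genes were higher and 1114 lower, 580 of the latter at least 2-fold. Calls varied with the span of genes on the genome. With the genes split by span into 5 bins of 2633 or 2634, 229, 491, 505, 438 and 259 were higher and 140, 239, 307, 332 and 311 lower, from the shortest to the longest, and the longest bin had more falls than rises. The part of span in these counts was not tested.

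**Figure D5:**
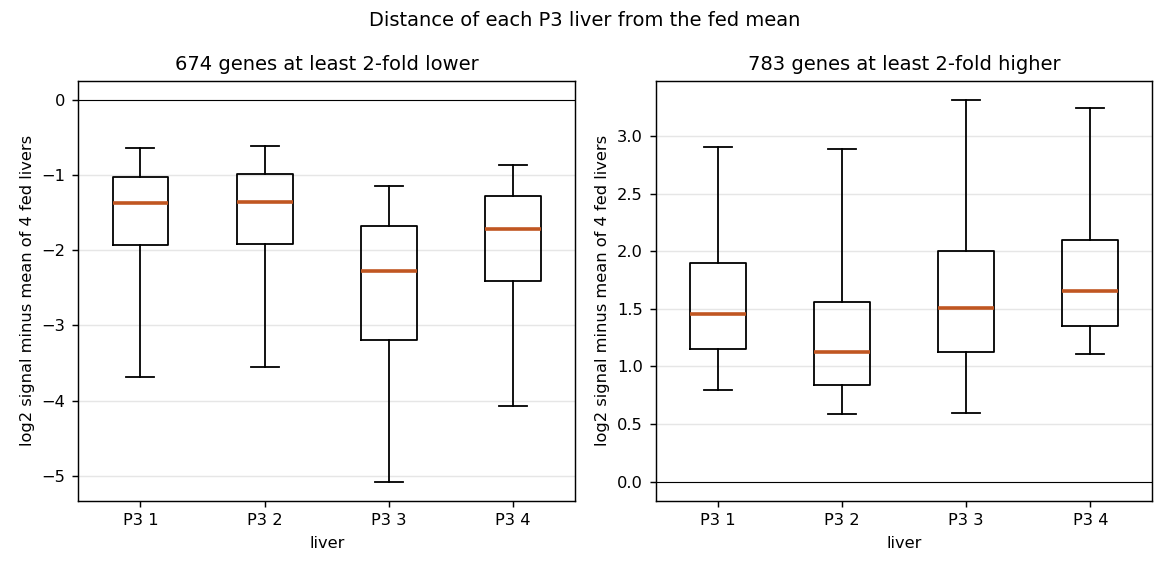
Log2 signal of each P3 liver minus the mean of the 4 fed livers (vertical axis) for the 674 genes at least 2-fold lower (left) and the 783 at least 2-fold higher (right); boxes give the quartiles with the median in orange, and whiskers reach the 5th and 95th percentiles. P3 3 lies furthest below the fed mean among the falls (median -2.27), and P3 2 lies nearest to it among the rises (median 1.12).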

How the data were processed

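The values are the deposited log2 signal intensities of 19418 transcript clusters in 16 livers. Per the submitters' processing notes, the authors used GCOS 1.4 and Affymetrix Expression Console 1.1. The summarization method is not given in the sources used here, and the log2 scale was inferred from the range of the values. Rows were named through the platform annotation, with symbols updated through RefSeq. Of 18885 rows tested, 13327 had 1 symbol, 620 had several and 4938 had none, and 533 rows outside the annotated range were left out. A gene with several rows was given by its brightest row, which left 13215 genes. Close family members (Cyp2c, Cyp2d, Gst, Akr1c, Hbb) may share probes and are uncertain.

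Limma 3.58.1 in R 4.3.3 fitted 1 model with 4 group means over the 16 arrays (12 residual degrees of freedom), with empirical Bayes moderation and Benjamini-Hochberg adjustment, threshold 0.05, and was tested on simulated data. Arrays were mapped to groups by their titles. The genes named were the 12 largest rises and 12 largest falls without overlap, up to 6 called members of each list in the direction of most of its calls, up to 3 the other way, and preset key and marker genes. Acaca, Acly, Agt, Agxt, C3, Dgat2, Fkbp5, Gldc, Gpam, Igf2r, Il1r1, Jun, Klf15, Kynu, Rrn3, Sec61a1, Srebf2, Stat5a, Tdo2, Tle3 and Tsc22d3, list members outside this rule, were added after their values were seen. Lists hold 1646 genes, 1250 of them with a row. The groups, the lists and these rules were chosen with earlier results of these data known. The 250 bases before each start were searched in RefSeq promoters (GRCr8). No protein sequences were used here. Alternatives were other normalizations, variance models, weights, filters, fits and arrays left out.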

Additional observations from a re-analysis of the deposited data

Results flagged for a closer look

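In 33 of 458 groups of 4 arrays (7.21%), over the 229 genes named here, 1 liver stood apart from the other 3 of its group, by a gap to the nearest of them that was past Dixon's critical value. Chance gives about 1 in 20 groups. All values are log2 signal intensities.

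Of these, 19 were in fed 2, the fed array of narrowest spread. It lay below the other fed livers in Alb (13.15 against 13.33 to 13.37), Apoa5 (9.97 against 10.47 to 10.54), C1qb (6.13 against 7.3 to 7.5), C1s (10.44 against 11.13 to 11.18), Ctsl (9.92 against 10.63 to 10.75) and Cyp2c11 (11.88 against 12.34 to 12.4). The same held for Dbt (8.14 against 8.62 to 8.67), Eif2s1 (7.02 against 8.48 to 8.69), Fabp1 (11.65 against 11.98 to 12.03), Irf1 (5.78 against 7.03 to 7.18), Lrat (7.53 against 8.43 to 8.59) and Nsdhl (10.92 against 11.1 to 11.13). It held also for Otc (9.86 against 10.8 to 10.87), Psmd12 (8.13 against 8.89 to 8.98), Rgn (10.87 against 11.56 to 11.69), Rrn3 (6.35 against 7.45 to 7.53), Slc1a2 (5.92 against 7.36 to 7.59) and Sult1c3 (10.66 against 11.38 to 11.47). It lay above them in Insig1 (12.35 against 11.19 to 11.37).

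P3 3 stood below the other P3 livers in Acly (7.03 against 7.61 to 7.66), Alb (12.98 against 13.15 to 13.18), Cyp7a1 (10.63 against 12.49 to 12.76), Idh1 (7.72 against 9.59 to 9.65) and Irs1 (8.02 against 8.82 to 8.98). P3 1 stood above them in Paqr9 (6.5 against 5.34 to 5.4), and P3 4 in Col1a2 (9.96 against 6.81 to 7.0). P3 2 stood below them in Gk (7.7 against 7.98 to 8.03) and Pvr (7.95 against 9.14 to 9.34). Among fed livers, fed 4 was the highest in Npc1 (8.28 against 7.95 to 7.99) and Nr4a1 (4.66 against 3.92 to 4.03) and the lowest in Scd (11.65 against 12.31 to 12.36). Fed 1 was the lowest in Mki67 (3.04 against 3.68 to 3.74), and fed 3 the highest in Ubd (9.44 against 8.17 to 8.24). The part of array quality in these values was not tested.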

How the results depend on the processing

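Under all 29 alternatives the 4 counts of called genes stayed within 1.5 times the values reported, and no named gene changed its direction while called. Leaving out each of the 16 arrays in turn gave 1512 (without P3 4) to 2012 genes higher, 1083 (without fed 4) to 1584 (without fed 2) lower, 614 (without fed 2) to 880 (without P3 2) at least 2-fold higher and 580 (without P3 3) to 793 (without fed 2) at least 2-fold lower. Without fed 2 and P3 3 together, the arrays of narrowest spread within the fed and P3 groups, 1628 genes were higher and 1400 lower. Quantile normalization gave 1974 higher and 1647 lower, the fit of fed and P3 arrays alone 1425 and 997, a covariate for array spread 2309 and 1707, and the stricter threshold of 0.01 gave 1319 and 909. Of the 220 called genes named here, 5 were not called in at least 1 fit that left out an array and 8 in at least 1 alternative. Replicate numbers were not taken to pair the arrays: deviations of the same-numbered fed and P3 arrays from their group means correlated at 0.0659, 0.0926, 0.173 and 0.294. With the replicate block, 1838 genes were higher, 1230 lower, 780 at least 2-fold higher and 667 at least 2-fold lower. With 4 arrays per group, small differences can be missed, and a row near the floor of the array gives a bounded fold change.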

Other observations

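Several genes on none of the gene lists moved as far as those described above. They were chosen after their values were seen and are given as values only. Dio1, the deiodinase that makes active thyroid hormone, stood at 9.85, 9.12, 9.90 and 10.12 in fed and at 5.13, 5.64, 3.79 and 4.43 in P3 livers (-5.0 ± 0.31, adjusted p = 2.6e-08), whereas P2 minus fed was -0.13 ± 0.31 (adjusted p = 0.82). G0s2, an inhibitor of the triglyceride lipase ATGL, stood at 9.91, 9.12, 9.17 and 10.12 in fed and at 4.94, 5.03, 4.79 and 4.92 in P3 (-4.66 ± 0.33), with P2 minus fed -0.35 ± 0.33. In both genes P3 livers were lower than P2 livers as well (-4.88 ± 0.31 with adjusted p = 6.7e-08 for Dio1, and -4.31 ± 0.33 with adjusted p = 4.4e-07 for G0s2). Stac3 (-5.63 ± 0.48), Paqr9 (-4.83 ± 0.34), Avpr1a (-4.41 ± 0.41), the vasopressin receptor of hepatocytes, and Sult1c3 (-4.56 ± 0.50), a sulfotransferase, fell by at least 16-fold, and for Avpr1a and Sult1c3 P3 3 was the lowest of the P3 livers.

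Cxcl11, a chemokine that interferon induces, stood at 6.77, 6.80, 7.07 and 7.48 in fed and at 3.56, 3.75, 3.42 and 3.56 in P3 (-3.45 ± 0.15, adjusted p = 6.3e-10). Ubd, a ubiquitin-like modifier, fell by 3.26 ± 0.36. In P2 neither was called against fed livers (0.20 ± 0.15 for Cxcl11 and -0.37 ± 0.36 for Ubd). Among the rises were Pvr (3.87 ± 0.25), the poliovirus receptor homologue, Il1rn (3.52 ± 0.37), the antagonist of interleukin 1, Nnmt (3.27 ± 0.21), which methylates nicotinamide, Upp2 (3.25 ± 0.22), a uridine phosphorylase, and Fmo2 (3.38 ± 0.21), a monooxygenase. Of 4938 rows that the annotation gives no gene symbol, 154 were higher and 121 lower. Of all 18885 rows tested, 2125 were higher and 1523 lower, so unnamed rows were called less often.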
